A study of Mus musculus with 24 samples.

Results

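The genes described here are the auxiliary subunits of voltage-gated sodium channels, taken as the beta subunit genes Scn2b, Scn3b and Scn4b and the fibroblast growth factor homologous factor (FHF) genes Fgf11, Fgf12, Fgf13 and Fgf14. Members were picked out by gene symbol, and all 7 were found among the 47643 genes of the count tables. The RNA came from neurons of the L4 dorsal root ganglion that were sorted for green reporter fluorescence. The ganglion lay on the uninjured side, 3 d after crush of the opposite sciatic nerve. Control mice carried Nav1.8-Cre, 1 floxed Tsc2 allele beside a wild-type allele (Tsc2 flox/+), and the Rosa26-ZsGreen reporter. Nav-Tsc2 mice carried the same Cre and reporter with 1 floxed and 1 null allele (Tsc2 flox/null). Both groups therefore expressed Cre, and the controls also lose 1 copy of Tsc2 wherever Cre acts. Each genotype had 4 mice, 2 males (replicates 1 and 2) and 2 females (replicates 3 and 4), aged 8 to 9 weeks on a mixed C57BL/6 and AJ background. The driver of Cre, the Nav1.8 gene, is used by most nociceptors and by part of the larger neurons that have myelin, so each sorted pool could hold several neuron classes.

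Voltage-gated sodium channels are built around an alpha subunit that forms the pore. Beta subunits are membrane proteins with an extracellular immunoglobulin-like fold. They alter channel gating and surface expression and also act as cell adhesion molecules. FHFs resemble secreted fibroblast growth factors in sequence but stay inside the cell, where they bind the cytoplasmic tail of the alpha subunit and shift channel inactivation. In sensory neurons both families help set how readily an axon fires and how long it can keep firing.

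From every mouse, 3 libraries of 100 cells each were made and summed, giving 47959617 to 61290435 reads on genes per mouse. Levels are given as CPM, the reads of a gene per 1000000 reads on genes after trimmed-mean (TMM) scaling. Differences are Nav-Tsc2 minus control on the log2 scale. A gene was called when edgeR's quasi-likelihood test put it under an adjusted p of 0.05 and the difference was past 0.5 in either direction. Tsc2 itself was at 13.4, 24.7, 21.5 and 24.1 CPM in control mice 1 to 4 and at 8.70, 8.51, 7.30 and 10.95 CPM in Nav-Tsc2 mice 1 to 4, a log2 fold change of -1.24 ± 0.22 (SE; edgeR, adjusted p = 0.00400). The 8 sensory neuron markers summed to 10881 to 12826 CPM in control and 13615 to 16372 CPM in Nav-Tsc2 mice. Of these, Isl1 (385 to 222 CPM) and Rbfox3 (98.5 to 55.6 CPM) were called lower, Prph (902 to 1481 CPM) was called higher, and 5 were not called.

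Of the 7 auxiliary subunit genes, 3 fell in Nav-Tsc2 neurons (Scn2b, Scn3b and Fgf12) and 0 rose. Over all 17178 genes tested, 8.0% were called lower and 9.12% higher. Fgf12 and Scn2b had the larger decreases, to 0.172 and 0.202 of the control mean. Fgf13, the most abundant of the 7, was at 0.739 of its control mean and passed the adjusted p but not the minimum fold, and by adjusted p alone 4 of the 7 and 10.2% of all genes were lower. Scn4b, Fgf11 and Fgf14 varied widely between control mice and did not pass. The median log2 fold change was -1.20 over the 7 genes and 0.01 over all genes tested. The median of the 7 is the value of Scn4b, and it was -0.47 without control mouse 2. With no member called higher by edgeR, the unadjusted p was under 0.05 for 1 of the 2 genes that had a positive log2 fold change, Fgf11, and DESeq2 also called 0 higher.

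**Figure D1:**
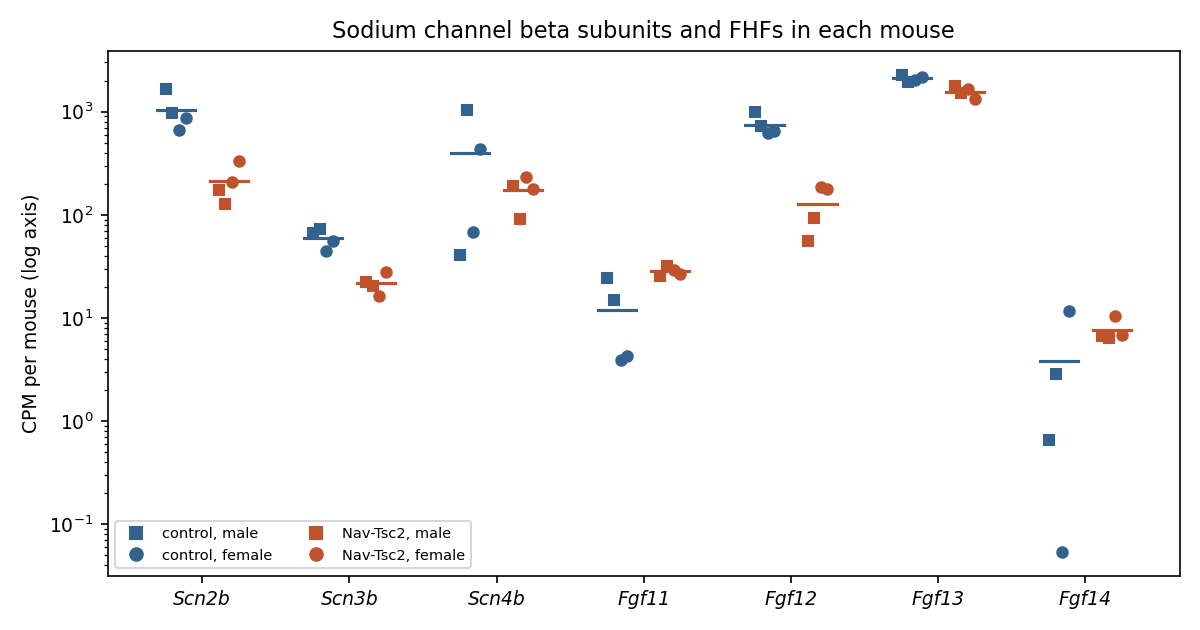
Level of each gene in each mouse, in CPM on a log axis. Blue is control and orange is Nav-Tsc2, squares are males, circles are females, and lines are the group means (n = 4 mice per genotype). The 4 Nav-Tsc2 mice sit below all 4 control mice for Scn2b, Scn3b, Fgf12 and Fgf13, and above them for Fgf11.

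Scn2b encodes the beta2 subunit, which is joined to the alpha subunit by a disulfide bond. It was at 1664, 963, 667 and 874 CPM in control mice 1 to 4 and at 174, 128, 209 and 332 CPM in Nav-Tsc2 mice 1 to 4. The lowest control mouse was thus above the highest Nav-Tsc2 mouse. Means were 1042 ± 433 CPM in control and 210 ± 87.5 CPM in Nav-Tsc2 mice (SD, n = 4 each), a 4.95-fold lower level. The log2 fold change was -2.31 ± 0.34 (SE; edgeR, adjusted p = 0.00162). The gene lies on chromosome 9 of GRCm38, from 45117782 to 45130070 on the plus strand.

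Scn3b encodes the beta3 subunit, which associates with the alpha subunit without a covalent bond. It was far less abundant, at 66.3, 72.2, 44.8 and 55.8 CPM in control mice and 22.2, 20.2, 16.2 and 28.1 CPM in Nav-Tsc2 mice. Again no Nav-Tsc2 mouse reached the lowest control. The level was 2.75-fold lower, with means of 59.8 ± 12.0 and 21.7 ± 4.98 CPM (SD, n = 4 each) and a log2 fold change of -1.46 ± 0.20 (SE; edgeR, adjusted p = 0.000990). Scn3b also lies on chromosome 9, from 40269217 to 40291618.

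Scn4b encodes the beta4 subunit, whose cytoplasmic tail can block the open pore and is linked to resurgent sodium current. It is the neighbor of Scn2b, on the same strand from 45138395 to 45154152, with 8324 bases between the annotated genes. Its level in control mice was 40.7, 1039, 68.7 and 437 CPM, against 188, 91.2, 234 and 178 CPM in Nav-Tsc2 mice. Control mice 2 and 4 were above every Nav-Tsc2 mouse and control mice 1 and 3 were below every one. The log2 fold change of -1.20 ± 0.84 (SE) did not pass (edgeR, adjusted p = 0.362), and it was -0.07 (adjusted p = 0.962) without control mouse 2. The standard deviation over control mice, 465 CPM, exceeded the control mean of 396 CPM.

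Fgf12 encodes an FHF that is expressed widely in neurons and slows or shifts the inactivation of the channels it binds. It was at 1002, 725, 614 and 646 CPM in control mice and at 55.8, 94.2, 187 and 176 CPM in Nav-Tsc2 mice. The lowest control mouse was well above the highest Nav-Tsc2 mouse. Means were 747 ± 176 and 128 ± 63.5 CPM (SD, n = 4 each), a 5.83-fold lower level and a log2 fold change of -2.54 ± 0.36 (SE; edgeR, adjusted p = 0.00127). Fgf12 spans chromosome 16 from 28160098 to 28753068 on the minus strand.

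Fgf13 encodes an FHF that also binds microtubules and is abundant in small sensory neurons. Control mice were at 2286, 1956, 2046 and 2153 CPM and Nav-Tsc2 mice at 1756, 1500, 1649 and 1328 CPM. The groups did not overlap, and the spread within each was small, with means of 2110 ± 142 and 1558 ± 186 CPM (SD, n = 4 each). The log2 fold change was -0.44 ± 0.10 (SE; edgeR, adjusted p = 0.0120), short of the minimum of 0.5. It was past both thresholds only when library B of each mouse was left out (-0.53, adjusted p = 0.00768), and its adjusted p was 0.0521 without library A and 0.0831 without library C. All Nav-Tsc2 mice were below all controls for 4 of the 7 genes and for 12.3% of all genes tested.

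Fgf11 encodes an FHF of less well known channel partners. Control mice were at 24.4, 15.0, 3.91 and 4.30 CPM and Nav-Tsc2 mice at 25.4, 31.8, 29.5 and 26.7 CPM. All 4 Nav-Tsc2 mice were above all 4 controls, although the margin between control mouse 1 and Nav-Tsc2 mouse 1 was narrow. Such an order was seen for 1 of the 7 genes and for 14.6% of all genes tested, and groups that did not overlap in either direction for 5 of the 7 and 26.9%. The log2 fold change of 1.25 ± 0.52 (SE) did not pass (edgeR, adjusted p = 0.125). It passed without control mouse 1 (1.87, adjusted p = 0.0245) and with sex as a covariate (1.64, adjusted p = 0.0324). With the 24 libraries and the mouse as a random effect in limma it was 2.83 (adjusted p = 0.00284). That fit used a correlation of 0.078 between libraries of a mouse, so it counted them almost as separate replicates.

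Fgf14 encodes an FHF best known from cerebellar neurons, where its loss causes ataxia. It was close to the lower limit of these libraries, at 0.661, 2.84, 0.0543 and 11.7 CPM in control mice and 6.75, 6.40, 10.4 and 6.84 CPM in Nav-Tsc2 mice. Control mouse 3 had 3 reads and control mouse 4 had 585 reads, so the groups overlapped. The log2 fold change was 0.99 ± 1.03 (SE; edgeR, adjusted p = 0.554) and 2.68 without control mouse 4 (adjusted p = 0.0809). With the 24 libraries and the mouse as a random effect in limma, it was called higher, at 4.10 (adjusted p = 0.00115). The limit of that fit given for Fgf11 holds here too, and 6 of 12 control libraries were under 1 CPM. Exons of Fgf14 overlap an antisense gene, Gm28932, over 5.26% of their length, and reads of the pair cannot be told apart where strand was not used in counting. Few reads could be shared with paralogs, since between 0.0% (Scn3b and Scn4b) and 3.05% (Fgf14) of the 50-base words in the transcripts of each gene occurred in transcripts of any other gene.

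The sequences just upstream of Scn2b and Fgf12, the genes with the larger decreases, and of Fgf11, whose log2 fold change was positive, are given for comparison. They are from RefSeq promoter windows on GRCm38.p6, which held 6 of the 7 genes, without Scn3b. Only bases outside the annotated gene are shown, 5′ to 3′ on the strand of the gene, from chr9:45117626-45117781 (plus), chr16:28753244-28753493 (minus) and chr11:69802281-69802530 (minus). Capitals mark matches, on either strand, to the CCAAT box (CCAAT), the GC box (GGGCGG), the TATA box (TATAAA), the E-box (CACGTG) or the cyclic AMP response element (TGACGTCA).
Scn2b: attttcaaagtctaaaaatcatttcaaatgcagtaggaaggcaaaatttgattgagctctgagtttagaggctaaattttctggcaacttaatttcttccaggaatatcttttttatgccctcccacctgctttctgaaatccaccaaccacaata
Fgf12: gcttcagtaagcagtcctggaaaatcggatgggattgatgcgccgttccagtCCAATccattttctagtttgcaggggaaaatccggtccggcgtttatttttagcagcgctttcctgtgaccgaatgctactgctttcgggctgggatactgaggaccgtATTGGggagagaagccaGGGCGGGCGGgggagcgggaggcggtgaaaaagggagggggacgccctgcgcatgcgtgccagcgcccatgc
Fgf11: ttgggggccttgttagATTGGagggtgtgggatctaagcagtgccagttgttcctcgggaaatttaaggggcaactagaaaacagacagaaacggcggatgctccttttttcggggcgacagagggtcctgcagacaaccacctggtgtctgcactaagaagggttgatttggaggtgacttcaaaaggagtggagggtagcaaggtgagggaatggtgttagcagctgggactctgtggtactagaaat

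RefSeq gives 4 windows for Fgf12, of which the other 3 lie inside the annotated gene and are not shown. The Fgf12 window shown held 2 matches to CCAAT and 2 overlapping matches to GGGCGG, the Fgf11 window held 1 match to CCAAT, and the 250 bases upstream of Scn2b held no match to any of the 5 motifs. Among 32851 RefSeq windows of 250 upstream bases, CCAAT occurred in 33.8%, GGGCGG in 32.7%, TATAAA in 12.4%, CACGTG in 6.02% and TGACGTCA in 1.55%. No motif of this set was in both the Scn2b window and the Fgf12 window shown.

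Levels were compared between genes per kilobase of annotated exon. Among FHFs, Fgf13 made up 80.9 ± 3.06% of the summed level in control mice and 92.3 ± 2.82% in Nav-Tsc2 mice (SD, n = 4 each). The share of Fgf12 was 18.4 ± 2.72% in control and 5.03 ± 2.62% in Nav-Tsc2 mice, and these ranges did not overlap (16.2 to 21.9% against 1.97 to 7.69%). Fgf11 and Fgf14 were minor in both genotypes, at mean shares of 0.581% and 0.143% in control and 2.24% and 0.433% in Nav-Tsc2 mice. The ranges did not overlap for Fgf11 (0.211 to 1.08% against 1.83 to 2.61%) and overlapped for Fgf14. A share also depends on the other members, and the mean FHF sum was 650 CPM per kilobase in control and 420 in Nav-Tsc2 mice. The share of Fgf13 was thus larger in Nav-Tsc2 mice although its level was lower (525 and 388 CPM per kilobase). Part of the larger Fgf11 share likewise comes from the smaller sum. Among the beta subunits measured, Scn2b made up 73.8 ± 21.0% in control and 53.3 ± 7.83% in Nav-Tsc2 mice, with overlapping ranges because the Scn4b share in control mice ran from 2.16 to 48.7%. Scn3b was the smallest of the 3, at 3.71 ± 0.864% and 5.09 ± 1.81%. The level of Scn2b, Scn3b and Scn4b summed, divided by the summed level of the 10 alpha subunit genes, was 0.577 to 1.71 in control and 0.234 to 0.540 in Nav-Tsc2 mice. For FHFs the same ratio overlapped, at 2.07 to 3.28 and 1.78 to 2.20. With the median transcript length in place of exon length, the beta ratio was 0.450 to 1.12 and 0.203 to 0.408, and the FHF ratio was 7.67 to 10.9 and 7.04 to 9.25, so the size of these ratios depends on the length used.

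**Figure D2:**
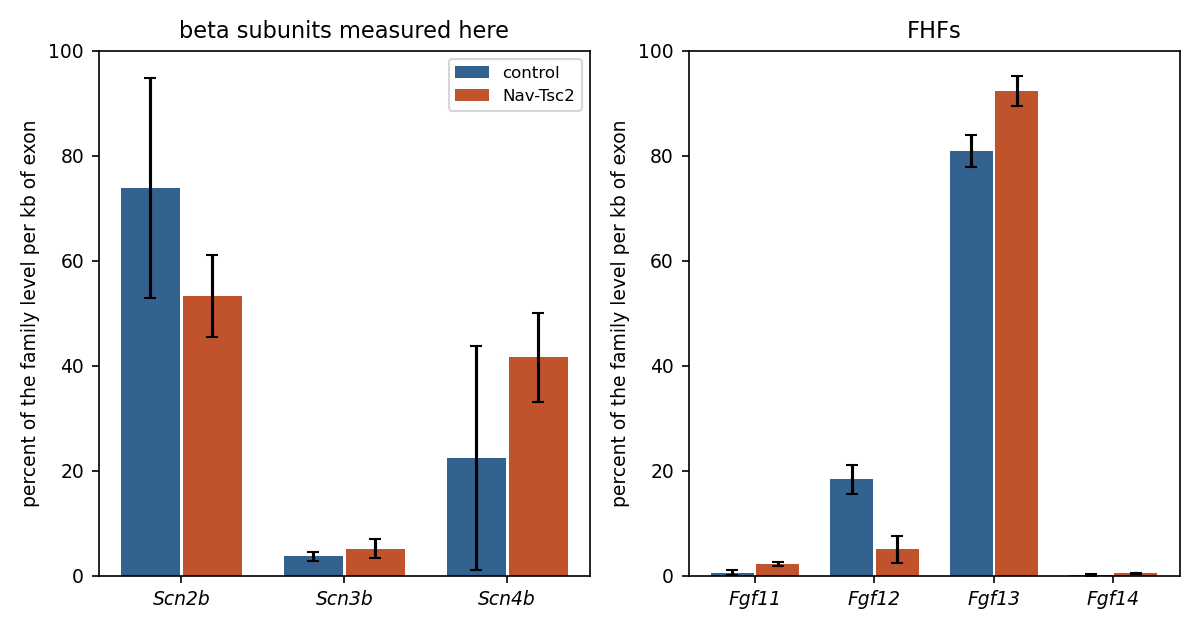
Share of each gene in the summed level of its family, in percent of CPM per kilobase of exon, for beta subunits (left) and FHFs (right). Bars are means of 4 mice and lines are 1 SD. Fgf12 takes 18.4% of the FHF level in control and 5.03% in Nav-Tsc2 mice, while Fgf13 takes most of it in both.

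The partners of these subunits were examined as lists, beside the 8.0% of all genes tested that were called lower and the 9.12% called higher. Of the 11 other sodium channel subunit genes, all tested, 3 fell (Scn7a, Scn8a and Scn1a), 0 rose and 8 were not called, with a median log2 fold change of -0.28. Scn8a, the Nav1.6 channel of nodes of Ranvier, was at 90.7, 98.1, 68.4 and 105 CPM in control mice and 21.9, 18.8, 23.5 and 44.0 CPM in Nav-Tsc2 mice. Scn8a thus changed by -1.74 ± 0.26 on the log2 scale (SE; edgeR, adjusted p = 0.00177). Scn1a, the Nav1.1 channel of myelinated sensory neurons, changed by -1.86 ± 0.36 (adjusted p = 0.00649), and Scn7a, the sodium-sensing Nax channel, by -1.12 ± 0.12 (adjusted p = 0.000349). The channels that characterize nociceptors did not pass. The values were -0.14 ± 0.14 for Scn10a, the Nav1.8 channel (adjusted p = 0.526), -0.22 ± 0.11 for Scn9a, the Nav1.7 channel (adjusted p = 0.201), and 0.01 ± 0.28 for Scn11a, the Nav1.9 channel (adjusted p = 0.984).

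Among 25 anchoring, adhesion and processing partners, 8 fell, 0 rose and 17 were not called, with a median log2 fold change of -0.20. The shares over all genes tested were 8.0% lower and 9.12% higher. The larger decreases were in axonal adhesion genes. Cntn1 encodes contactin, which binds beta subunits and pairs with Caspr beside the node. It was at 550, 674, 318 and 359 CPM in control mice and 35.0, 56.1, 124 and 89.1 CPM in Nav-Tsc2 mice, a log2 fold change of -2.64 ± 0.39 (SE; edgeR, adjusted p = 0.00166). Cntnap1, which encodes Caspr, changed by -2.28 ± 0.25 (adjusted p = 0.000331), and Nrcam, a nodal cell adhesion molecule, by -1.49 ± 0.27 (adjusted p = 0.00413). Nedd4, a ubiquitin ligase that acts on sodium channels, changed by -0.66 ± 0.10 (adjusted p = 0.00190). Psen2, Nfasc and Dpysl2 were also called, with log2 fold changes from -0.84 (Nfasc) to -0.50 (Dpysl2). Ank3, the ankyrin G gene that anchors channels at the initial segment and node, did not pass, with a log2 fold change of -0.02 ± 0.09 (adjusted p = 0.898). Neither did Cntn2 (-0.07 ± 0.16, adjusted p = 0.809).

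**Figure D3:**
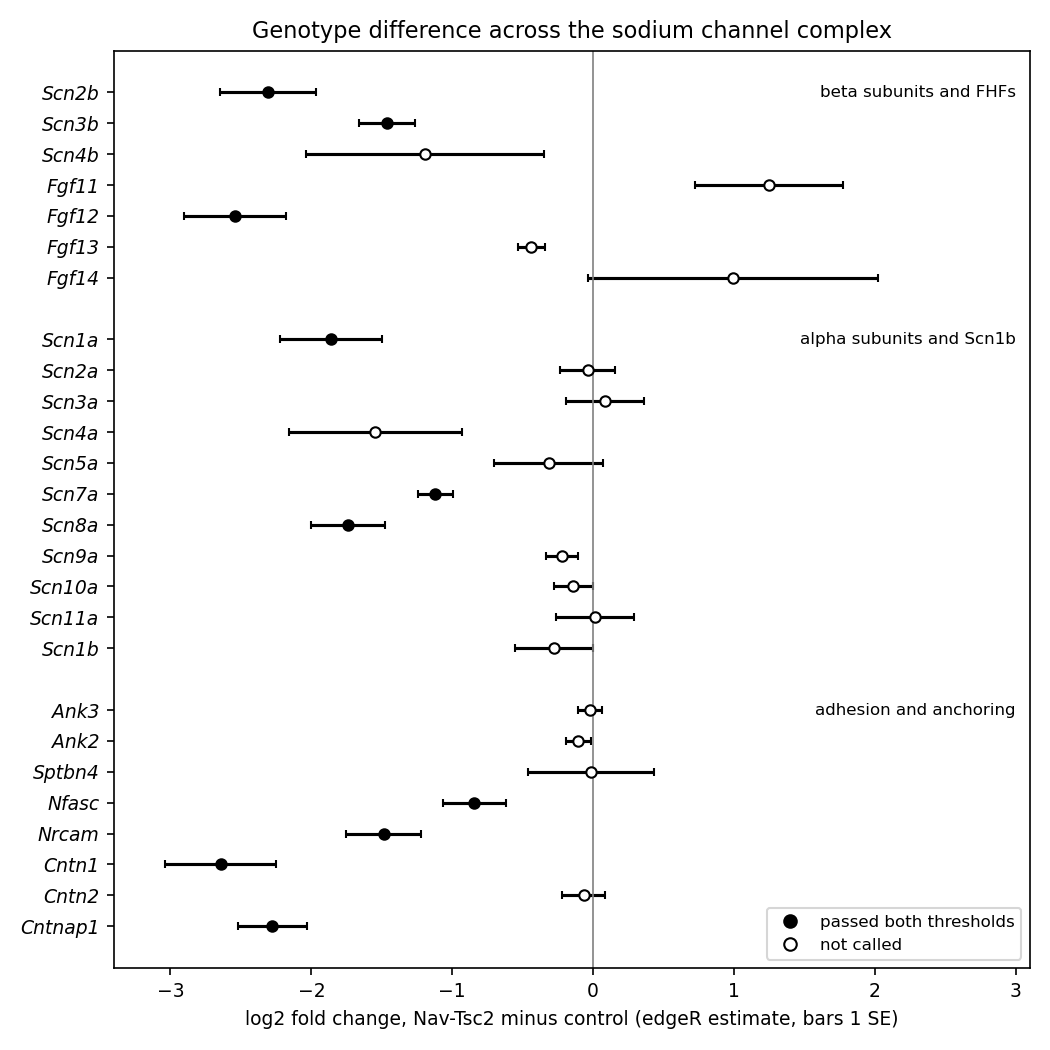
Log2 fold change, Nav-Tsc2 minus control, from edgeR (bars are 1 SE; n = 4 mice per genotype) for the auxiliary subunits, the other sodium channel subunits and a selection of anchoring and adhesion genes. Filled points passed both thresholds. Scn2b, Scn3b, Fgf12, Scn1a, Scn8a and Cntn1 lie below -1, while Scn9a, Scn10a, Scn11a and Ank3 lie near 0.

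Of 25 other FGF ligands and receptors, 11 had enough reads to be tested, and 1 fell and 3 rose. Over all genes tested, 8.0% were called lower and 9.12% higher, so 1 of 11 lower was near the share of all genes. Fgf1, a growth factor without a secretion signal that is abundant in sensory neurons, was at 411, 470, 330 and 475 CPM in control mice and 98.6, 156, 113 and 126 CPM in Nav-Tsc2 mice. It was 3.41-fold lower, with a log2 fold change of -1.77 ± 0.16 (SE; edgeR, adjusted p = 0.000141). The 3 that rose were scarce. Fgf3 had 7 reads in all control mice and 430 in all Nav-Tsc2 mice (edgeR, adjusted p = 0.00140), Fgfrl1 had 47 and 597 (adjusted p = 0.0438), and Fgf7 had 196 and 650 (adjusted p = 0.0431). Fgf7 was called in 5 and Fgfrl1 in 10 of 19 alternative fits.

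Each library is a separate pool of 100 cells, and the pools of a mouse differed more for some genes than for others. Over 24 libraries, Fgf13 was the steadiest of the 7 genes, with a standard deviation of 0.38 on the log2 scale within control mice and 0.22 within Nav-Tsc2 mice. Fgf12 varied by 1.38 and 0.91 and Scn2b by 0.68 and 0.72. In control mouse 2, Fgf12 was at 60.9 CPM in library A against 1098 and 948 CPM in libraries B and C. In control mouse 3 it was at 145 CPM in library A against 834 and 580 CPM. These 2 libraries were the only control libraries below the highest Nav-Tsc2 library, at 320 CPM. For Scn2b, 11 of 12 Nav-Tsc2 libraries were below the lowest control library of 230 CPM, and library B of Nav-Tsc2 mouse 4 stood apart at 583 CPM. Fgf11 was under 1 CPM in 4 of 12 control libraries and in 0 of 12 Nav-Tsc2 libraries, where it ran from 14.2 to 49.9 CPM. In control mice the richest library held a median of 83.7% of the Fgf11 reads of the mouse, against 44.8% in Nav-Tsc2 mice. Fgf14 was under 1 CPM in 6 of 12 control and 0 of 12 Nav-Tsc2 libraries. Leaving out library A, B or C of each mouse kept Scn2b, Scn3b and Fgf12 called in every case.

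**Figure D4:**
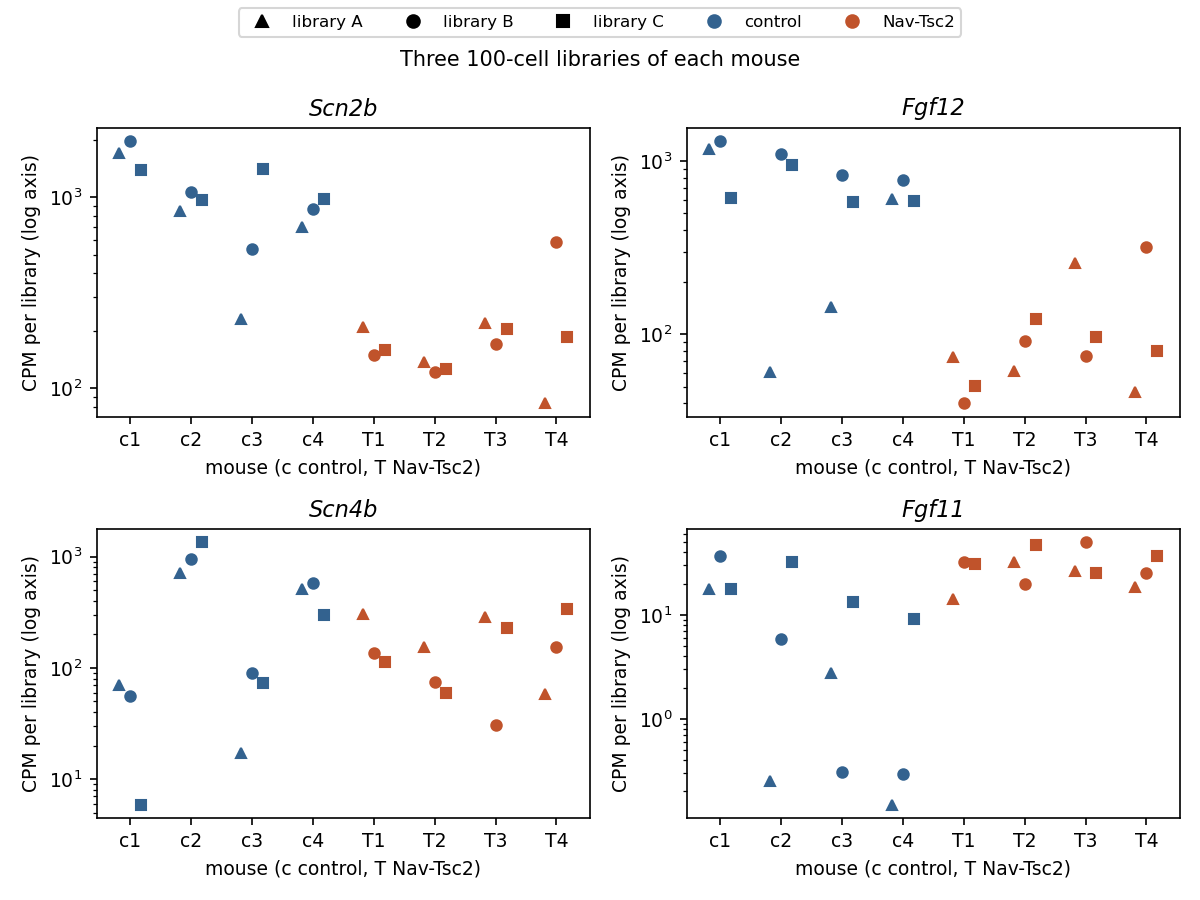
CPM (log axis) of Scn2b, Fgf12, Scn4b and Fgf11 in the 3 libraries of each mouse, with controls c1 to c4 in blue and Nav-Tsc2 mice T1 to T4 in orange. Scn4b in control libraries runs from 5.90 to 1341 CPM, mostly between mice, and Fgf11 in controls runs from 0.149 to 36.8 CPM, also between pools of the same mouse.

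After the genotype means were subtracted, the genes whose log2 CPM followed each member most closely over the 24 libraries were sought among 8445 genes. Libraries of a mouse share that mouse, and picking the closest of 8445 genes over 24 libraries favors high r by itself. These values are therefore descriptions, and how high r would be from picking alone was not tested. Fgf12 had the closest companions, Fam19a1 (r = 0.93), S100a16 (r = 0.90) and Nrxn3 (r = 0.85), each of which was also called lower in Nav-Tsc2 mice. Fgf13 was followed by Max (r = 0.86), Pip4p2 (r = 0.80) and Slc7a7 (r = 0.79), and Fgf14 by Rab3c (r = 0.83), Pcdh9 (r = 0.78) and Ndufs1 (r = 0.78). Scn2b was followed by Tmem250-ps (r = 0.79), Ggps1 (r = 0.79) and Ptp4a2 (r = 0.78), and Scn3b by Trub2 (r = 0.78), Car11 (r = 0.76) and Nrsn1 (r = 0.75). Scn4b was followed by Pcp4l1 (r = 0.73), Asna1 (r = 0.73) and Ttbk2 (r = 0.73), and Fgf11 by Psmd1 (r = 0.77), Polr3e (r = 0.73) and Wdr70 (r = 0.73). Among the members themselves, Scn2b and Fgf12 went together (r = 0.60) and the neighbors Scn2b and Scn4b did not (r = 0.13). Fgf12 went with Scn1a (r = 0.67) and Cntn1 (r = 0.65), and Fgf13 went against Nefh, a neurofilament of large myelinated neurons (r = -0.64). Scn2b went with Calca, the CGRP gene of peptidergic neurons (r = 0.65), and against Scn10a (r = -0.44). Scn3b went with Calca (r = 0.52) and against Mrgprd (r = -0.50), and Fgf13 went against Scn8a (r = -0.54). These pairs are a selection of those computed, with larger values favored.

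Some markers of neuron classes differed with genotype as well, mostly in the peptidergic list. Their counts stand beside 8.0% of all genes tested called lower and 9.12% called higher. The 6 peptidergic markers summed to 9535 to 19382 CPM in control and 4208 to 6980 CPM in Nav-Tsc2 mice, and 3 of the 6 were called lower, Calca and Kit among them. Of the A-fiber markers, 1 of 10 tested was called lower (Ldhb), near the share of all genes. Nefh did not pass, with a log2 fold change of -0.45 (edgeR, adjusted p = 0.205). Pvalb (means of 1.08 and 5.54 CPM in control and Nav-Tsc2 mice) and Spp1 (1.41 and 6.45 CPM) went the other way and were not called. Of 6 nonpeptidergic markers 0 were called, and their sum was 511 to 1716 CPM in control and 1730 to 1892 CPM in Nav-Tsc2 mice. Of 4 low-threshold C-fiber markers, Th was called higher and Piezo2 lower. In RNA from pools, fewer cells of a class and less RNA per cell cannot be told apart. Endothelial markers summed to 0.474 to 2.11 CPM in control and 5.90 to 16.0 CPM in Nav-Tsc2 mice, with Cldn5 near 0 in both, and 2 of 3 tested were called higher (Flt1 and Kdr). Most of the Nav-Tsc2 sum was Flt1, at a mean of 0.0338 CPM in control and 8.56 CPM in Nav-Tsc2 mice. Pecam1 (0.422 and 0.315 CPM) was lower, and Tek (0.510 and 0.563 CPM) and Cdh5 (0.0511 and 0.115 CPM) changed little. Macrophage markers summed to 0.669 to 4.56 and 7.90 to 17.4 CPM, and 1 of 4 tested was called higher (Cx3cr1), with C1qa near 0 in both. Means in control and Nav-Tsc2 mice were 0.0328 and 5.71 CPM for Cx3cr1, 0.803 and 3.71 CPM for Csf1r, and 0.495 and 2.03 CPM for Cd68. Itgam (0.161 and 0.00846 CPM) and Adgre1 (0.196 and 0.102 CPM) were lower in Nav-Tsc2 mice, and Aif1 (0.870 and 1.10 CPM) changed little. The 14 glial markers summed to 2974 to 3117 and 1956 to 2547 CPM, with S100b alone called (lower). No fibroblast or red blood cell marker was called. The part of these shifts in the decreases of Scn2b, Scn3b and Fgf12 was not tested.

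Each genotype had 2 males and 2 females, which let the genotype difference be compared between sexes. The log2 fold change of Fgf12 was -3.52 ± 0.27 in males and -1.80 ± 0.25 in females (SE; edgeR, adjusted p = 0.000577 and 0.00710). Scn2b had values of -3.12 ± 0.34 in males and -1.51 ± 0.32 in females (adjusted p = 0.00163 and 0.0324). Fgf11 had values of 0.54 ± 0.25 in males (adjusted p = 0.201) and 2.77 ± 0.27 in females (adjusted p = 0.00214), its female controls having the lowest levels of any mice. The difference itself, female minus male effect, was 1.73 ± 0.34 for Fgf12, 1.61 ± 0.44 for Scn2b and 2.24 ± 0.37 for Fgf11. None of the 7 genes passed an adjusted p of 0.05 for it in edgeR (adjusted p = 0.198, 0.334 and 0.145 for these genes), and 0.00582% of all genes did. At an unadjusted p under 0.05 there were 3 of the 7 and 9.22% of all genes. DESeq2 called the same 3 genes (adjusted p = 8.15e-05, 0.00835 and 1.03e-05), with 2.03% of all genes. Sex as a main effect passed for 0 of the 7 genes with either tool, beside 0.0291% of all genes with edgeR and 0.752% with DESeq2. At an unadjusted p under 0.05 in edgeR there was 1 of the 7, Fgf11, beside 6.66% of all genes, and DESeq2 gave the same gene. With 2 mice per sex and genotype, these comparisons rest on few animals. The control pools of the sexes also differed in markers of neuron classes. Calca was at 13465 and 14634 CPM in control males against 6039 and 6511 CPM in control females. Calcb went the other way (2091 and 2033 against 2334 and 2328 CPM). Mrgprd was at 56.0 and 21.9 against 325 and 233 CPM, and in Nav-Tsc2 mice at 546, 486, 598 and 518 CPM. The part of these marker differences in the sex comparisons was not tested.

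**Figure D5:**
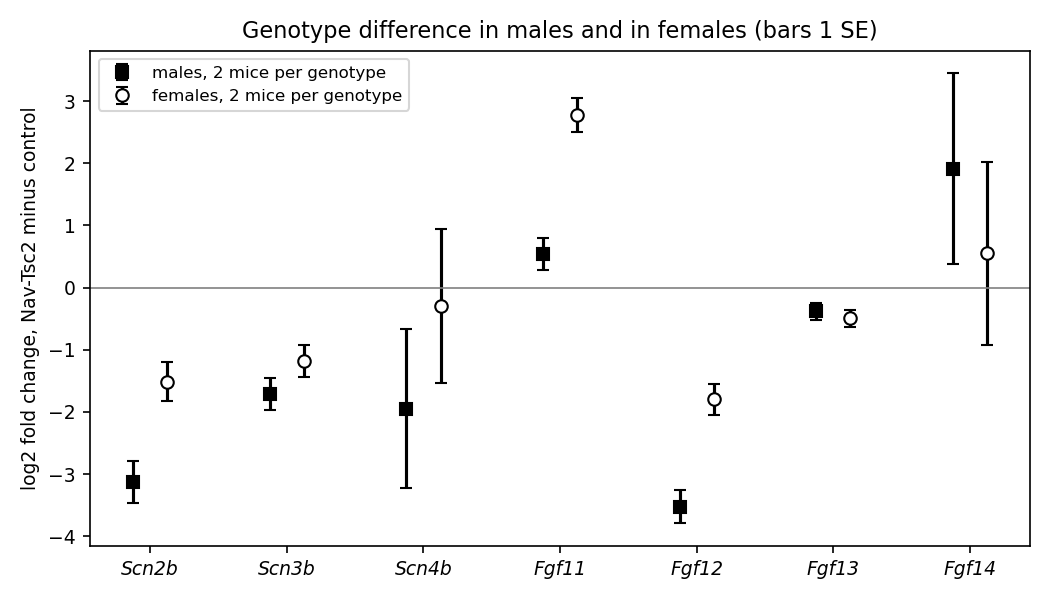
Log2 fold change, Nav-Tsc2 minus control, of each gene in males (filled squares) and in females (open circles), with bars of 1 SE and 2 mice per sex and genotype. Scn2b and Fgf12 lie lower in males than in females, and Fgf11 lies higher in females.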

How the data were processed

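Per the labels, RNA of pools of 100 sorted cells was amplified with the SMARTer Ultra Low kit and sequenced. The authors' notes name FastQC, STAR, HTSeq and the mm10 build, and the deposited values used here are raw read counts per gene of 24 libraries. The kit has no molecular identifiers, so amplification adds to the spread between pools, and strand use in counting is not given in the sources used here. A deposited DESeq2 table with the authors' fold changes and p-values and its 8 per-sample columns were not used.

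The 3 libraries of each mouse were summed (8 mice) and tested with edgeR 4.0.16 (quasi-likelihood test, TMM scaling, filterByExpr, Benjamini-Hochberg adjustment over 17178 genes). DESeq2 1.42.0 and limma 3.58.1 in R 4.3.3 served as alternatives, beside other scalings, no filter, sex or replicate number in the fit, and each mouse or library left out. The test was run on simulated data first. Library depth was 8339220 to 34228180 reads on genes, and 47.6 to 55.9% of counts were assigned to no gene. Most of the unassigned counts were alignments that were not unique, at 37.5 to 42.6% of all counts. Gene symbols, positions and exon lengths came from GENCODE on GRCm38 (47224 of 47643 identifiers matched). Libraries of a mouse are technical replicates, and p-values rest on the spread between mice. The exception is the limma fit of the 24 libraries, whose p-values rest largely on the spread between libraries.

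The members and lists were chosen with earlier results of these data known. Named genes were the 7 members, Tsc2, up to 4 called genes per list and direction with the smallest p, and the 3 genes closest to each member over the libraries (genes with a mean of at least 10 CPM, log2 of CPM plus 1). The other partner genes named, the markers, Ank3, Cntn2 and the nociceptor channels were chosen after their values were seen. Some genes counted in the lists are not reported here by name.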

Additional observations from a re-analysis of the deposited data

Results flagged for a closer look

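Among 38 groups of 4 mice examined for a mouse far from the other 3, 3 had one, and about 1 in 20 groups has one by chance. Fgf14 was at 10.4 CPM in Nav-Tsc2 mouse 3, against 6.40 to 6.84 CPM in the other Nav-Tsc2 mice. Scn1a was at 105 CPM in control mouse 4, against 45.5 to 53.6 CPM in the other controls. Fgfrl1 was at 0.724 CPM in control mouse 3, against 0.0 to 0.0803 CPM in the others.

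The genotype effect differed between sexes by the DESeq2 test and not by edgeR for 3 genes. The female minus male difference in log2 fold change from edgeR was 1.61 for Scn2b, 2.24 for Fgf11 and 1.73 for Fgf12. Scn2b and Fgf12 were lower in both sexes, and Fgf11 had a positive log2 fold change in both. Control males and females also differed in neuron class markers, as given above for Calca and Mrgprd.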

How the results depend on the processing

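Scn2b, Scn3b and Fgf12 were called lower in each of 19 alternative fits, 3 of which (libraries A, B or C left out) were chosen after seeing the data. Their log2 fold changes ran from -2.65 to -1.99, -1.62 to -1.34 and -2.85 to -2.29. None of the 19 genes refitted, the members, Tsc2 and called list genes, changed sign. The number of members called higher, 0, became 1 with sex as a covariate, 2 with the 24 libraries and the mouse as a random effect (Fgf11 at 2.83, adjusted p = 0.00284, and Fgf14 at 4.10, adjusted p = 0.00115; limma), and 0 to 1 when 1 mouse was left out. The random-effect fit counted libraries of a mouse almost as separate replicates. With the replicate number as a block, 3 members were again called lower and 0 higher. Same-numbered mice deviated together by r = 0.0831, 0.108, 0.0187 and 0.107, and not every mouse correlated best with its own number, so numbers were not taken to pair the mice. Under the block Scn4b moved from -1.20 to -0.09, Fgf14 from 0.99 to 2.35, Fgf11 from 1.25 to 1.67 and the median of the members from -1.20 to -0.44 (-0.45 with the random effect). The calls of the FGF list became 2 lower and 2 higher, and the other lists kept their counts.

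When 1 mouse was left out, partners called lower ran from 5 (without control mouse 1 or Nav-Tsc2 mouse 4) to 9, FGF genes called lower from 1 to 2 (without Nav-Tsc2 mouse 4) and higher from 1 to 3. FGF genes called lower became 2 with sex as a covariate or equal library weights. Those called higher became 1 with equal library weights, the random effect, an adjusted p under 0.01, or library A or B left out. With no minimum fold 1 partner was called higher. With DESeq2, 3 members had a genotype effect that differed between sexes. With median transcript length, shares in control and Nav-Tsc2 mice were 11.6 and 15.5% for Scn3b, 0.108 and 0.393% for Fgf11 and 88.4 and 96.5% for Fgf13. Fgf12 in control was 11.4%, and Fgf14 in Nav-Tsc2 mice was 0.0857%. Low counts limit Fgf3, Fgfrl1 and Fgf14, which had 3 reads or fewer in 4, 2 and 1 of the 4 control mice.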
